A study of Mus musculus with 8 samples.

Results

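Marker genes of pyramidal neurons were followed through a pulldown of ribosomes from another cell type, the parvalbumin-expressing (PV+) interneurons of the mouse primary somatosensory cortex (S1). The 9 genes were *Slc17a7*, *Slc17a6*, *Neurod6*, *Neurod2*, *Tbr1*, *Nrgn*, *Rorb*, *Cux2* and *Emx1*, taken by gene name from 45706 genes. All 9 belonged to the 17495 genes with enough reads to be tested, and the lowest estimated count of any of them in any sample was 185, for *Emx1*. All mice of both groups carried 1 *Pvalb*Flp and 1 *Neurod6*Cre allele (PvalbFlp/+;Neurod6Cre/+) and had received at P1 an adeno-associated virus with HA-RPL10a and myc-hM3Dq, placed under Flp (fdio) and between Cre sites (flox). At P42 to P70, 4 samples came from mice given CNO, the ligand of the excitatory receptor hM3Dq, in 5 injections of 1 mg/kg over 48 h, and 4 from mice given vehicle. Each sample pooled 4 brains, so that the replicates are pools and not single animals.

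Pyramidal neurons are the excitatory, glutamate-releasing neurons of the cortex, and PV+ interneurons are inhibitory and release GABA. The virus carried an HA-tagged ribosomal protein, RPL10A, that Flp recombinase switches on and Cre recombinase removes. Flp was driven from *Pvalb*, which some pyramidal neurons of layer 5 express for a time, and Cre from *Neurod6*, which is active in pyramidal neurons of the cortex, so that the tag should be kept in PV+ interneurons and lost in pyramidal neurons. RNA bound to the beads without a tagged ribosome is a known background of such pulldowns. No library of unbound or total RNA was analysed here, so depletion or enrichment of a gene by the pulldown was not measured. In RNA pulled down from pooled tissue, fewer cells of a type, less RNA per cell and less of this background cannot be told apart.

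The genes have different roles. *Slc17a7* and *Slc17a6* encode VGLUT1 and VGLUT2, the transporters that load glutamate into synaptic vesicles. *Neurod6* and *Neurod2* encode transcription factors of the basic helix-loop-helix family, and *Tbr1* and *Emx1* encode transcription factors of the T-box and homeobox families that act in the making of excitatory cortical neurons. *Nrgn* encodes neurogranin, a calmodulin-binding protein of dendrites and spines. *Rorb* and *Cux2* encode transcription factors used as markers of layer 4 and of the upper layers, and *Cux2* is also known from some cortical interneurons.

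Basic helix-loop-helix proteins bind E-boxes, sites of the form CANNTG. The stretches of 250 bases before 1 start site each of *Slc17a7*, *Slc17a6* and *Neurod6* are shown because these genes stand for the glutamate transporters and for the locus that carries Cre in these mice. They are RefSeq sequences of GRCm38.p6, written 5′ to 3′ on the strand of the gene, with each CANNTG in capitals. The stretches lie at chr7:45163671-45163920 (plus strand), chr7:51621580-51621829 (plus strand, the first of 2 start sites) and chr6:55681264-55681513 (minus strand).
Slc17a7: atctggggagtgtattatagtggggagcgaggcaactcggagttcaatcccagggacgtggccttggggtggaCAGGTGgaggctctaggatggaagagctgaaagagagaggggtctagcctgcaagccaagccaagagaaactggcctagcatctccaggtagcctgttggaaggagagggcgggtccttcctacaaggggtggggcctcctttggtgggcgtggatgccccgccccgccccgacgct
Slc17a6: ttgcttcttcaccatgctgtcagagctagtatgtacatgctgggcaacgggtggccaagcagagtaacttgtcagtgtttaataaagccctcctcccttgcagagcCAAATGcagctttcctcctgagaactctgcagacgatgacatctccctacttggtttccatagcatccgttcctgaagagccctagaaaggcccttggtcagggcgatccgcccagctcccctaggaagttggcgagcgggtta
Neurod6: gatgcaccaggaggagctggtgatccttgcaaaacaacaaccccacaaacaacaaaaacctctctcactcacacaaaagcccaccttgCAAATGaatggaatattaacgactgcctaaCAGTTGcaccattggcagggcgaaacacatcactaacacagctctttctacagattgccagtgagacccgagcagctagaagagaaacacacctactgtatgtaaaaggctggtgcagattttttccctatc
The stretch of *Neurod6* held 2 such sites and the other 2 stretches held 1 each. Over all start sites of the 9 genes, 11 of 12 stretches held CANNTG, a sequence that reads the same on both strands, against 66.2% of 32851 stretches of the same length. The narrower CAGATG, searched on both strands (CATCTG on the other) and contained in the first motif, was present in 4 of 12 against 14.4%. A match describes these letters, and binding was not measured.

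The genes lie on 7 chromosomes, at chr7:45163949-45176142 (*Slc17a7*), chr7:51622006-51671119 (*Slc17a6*), chr6:55677822-55681263 (*Neurod6*), chr11:98325415-98329648 (*Neurod2*), chr2:61802930-61814114 (*Tbr1*), chr9:37544492-37552904 (*Nrgn*), chr19:18930605-19111196 (*Rorb*), chr5:121856366-122050102 (*Cux2*) and chr6:85187438-85204462 (*Emx1*) of GRCm38. No base of their exons was shared with an overlapping gene, and at most 0.712% of the 31-base stretches of their transcripts occurred in transcripts of other genes. Mice of both groups carry Cre in 1 *Neurod6* allele, and how reads of that allele were counted was not tested.

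Depth was similar between samples, with 44064161 to 49413273 reads counted on genes. Levels are given in TPM (counts per transcript length, scaled by the authors to the same sum in every sample). Of 10 PV+ interneuron markers, *Gad1* and *Pvalb* had the highest means, at 1227 and 907 TPM. The lowest were *Lhx6* (53.6 TPM), *Slc32a1* (25.3 TPM) and *Erbb4* (20.4 TPM). Vehicle replicate 1 stood apart. Its summed level of 10 PV+ interneuron markers was 1210 TPM against 2961 to 3211 in the other 3 vehicle samples, and 9 of the 10 markers had their lowest level there. In CNO replicate 4 the same sum was the highest of all samples, at 4035 TPM. No sample was left out of the main comparisons, and each fold change of the 9 genes is also given without either of these samples.

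All 9 pyramidal genes were detected in all 8 samples, at levels that spanned more than 2 orders of magnitude. On the TPM scale, averaged over the 8 samples, *Nrgn* was the highest at 959, followed by *Slc17a7* at 433. *Tbr1* (36.0), *Neurod2* (30.9), *Neurod6* (30.1), *Rorb* (28.1) and *Cux2* (26.5) lay close together, and *Emx1* (8.84) and *Slc17a6* (6.96) were lowest. Among the 15173 tested genes with a mean TPM above 1, *Nrgn* stood above 99.6% and *Slc17a7* above 98.4%, the 5 middle genes above 59.1% to 66.7%, and *Emx1* and *Slc17a6* above 34.0% and 30.0%. Neighbours in this order were compared within samples by a two-sided exact sign-change test on log2(TPM + 1), adjusted over 8 pairs. *Nrgn* exceeded *Slc17a7* in 8 of 8 samples by 1.13 on this log2 scale, *Slc17a7* exceeded *Tbr1* in 8 of 8 by 3.56, and *Cux2* exceeded *Emx1* in 8 of 8 by 1.498 (exact adjusted p = 0.0208 for each, from the smallest p that 8 samples allow). *Tbr1* exceeded *Neurod2* in 7 of 8 samples (exact adjusted p = 0.0312). This call was lost when any single sample other than vehicle replicate 2 was left out. In vehicle replicate 2 *Neurod2* lay above *Tbr1*, at 35.5 against 35.4 TPM. With 7 samples the test has fewer sign patterns and its smallest possible p is larger. The loss therefore does not show that the call rests on any single sample. Without vehicle replicate 1 *Cux2* stood above *Rorb*. *Neurod2* and *Neurod6* (exact adjusted p = 0.330), *Neurod6* and *Rorb* (0.0938), *Rorb* and *Cux2* (0.758), and *Emx1* and *Slc17a6* (0.0938) did not differ beyond their spread. The plot of levels by sample shows the same steps.

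**Figure D1:**
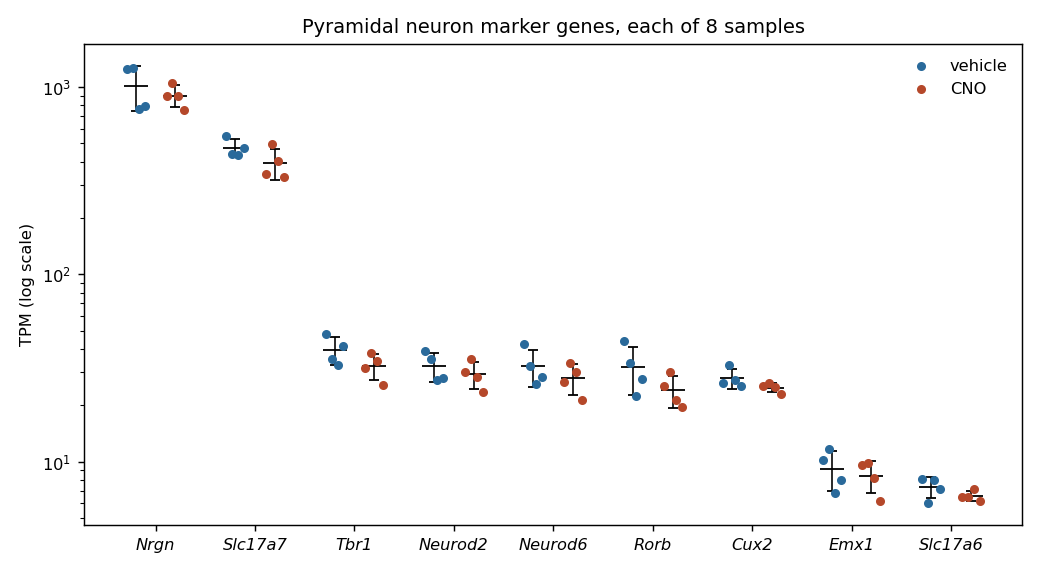
Level of each of the 9 genes in TPM on a logarithmic axis, with 1 point per sample (4 vehicle in blue, 4 CNO in red, replicates 1 to 4 from left to right) and the mean with its SD in black. The points of both groups overlap for every gene, and *Nrgn* and *Slc17a7* lie above all other genes.

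The first question was whether the levels differed between CNO and vehicle, that is, whether raised activity of the PV+ interneurons went with a change in pyramidal neuron RNA in the pulldown. No difference passed the test for any of the 9 genes. The quasi-likelihood test of edgeR called 0 of 9 at an adjusted p under 0.05 (0% of all 17495 genes were called), 0 of 9 at an unadjusted p under 0.05 (4.09% of all genes in either direction, 2.65% lower in CNO), and neither the robust likelihood ratio test nor DESeq2 called any of the 9 (15 and 11 of all genes). The fitted level was lower in CNO for 9 of 9 genes, where 49.6% of all tested genes were lower. The median of their log2 fold changes was -0.137, and that of all tested genes was 0.0014. Without vehicle replicate 1 the median was -0.089 and all 9 remained lower, and without CNO replicate 4 it was -0.085 with 8 of 9 lower. No gene had all CNO samples below all vehicle samples in TMM-normalized CPM (counts relative to library size), a separation that 1.63% of all genes showed.

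The glutamate transporters came first by role. *Slc17a7* measured 345, 493, 405 and 331 TPM in CNO replicates 1 to 4 and 547, 441, 436 and 470 TPM in vehicle replicates 1 to 4. Vehicle replicate 1 was highest and CNO replicate 4 lowest, and CNO replicate 2 lay above 3 of the 4 vehicle samples, so that the groups overlapped. The means were 394 ± 73.8 (SD, n = 4) and 473 ± 51.3 TPM (SD, n = 4), and the log2 fold change was -0.20 ± 0.12 (SE; edgeR adjusted p = 0.817). Without vehicle replicate 1 or without CNO replicate 4 it was -0.15. The exact permutation test on log2(TPM + 1) gave p = 0.143. Without CNO replicate 2 this exact p was 0.0286, the smallest that the 7 samples allow and not adjusted over the 9 genes. The gene was still not called there (edgeR adjusted p = 0.472). *Slc17a6* measured 6.46, 6.51, 7.19 and 6.19 TPM in CNO and 8.08, 6.03, 7.97 and 7.21 TPM in vehicle. Its lowest value came from vehicle replicate 2, and its range over the 8 samples was the narrowest of the 9 genes, at 1.34-fold. The log2 fold change was -0.08 ± 0.12 (SE; edgeR adjusted p = 0.859; exact permutation p = 0.229), and it was -0.06 without vehicle replicate 1 and -0.09 without CNO replicate 4.

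The basic helix-loop-helix factors moved alike from sample to sample. *Neurod6* measured 26.6, 33.5, 30.3 and 21.3 TPM in CNO and 42.5, 32.4, 25.9 and 28.5 TPM in vehicle. *Neurod2* measured 30.3, 35.3, 28.3 and 23.7 TPM in CNO and 39.0, 35.5, 27.2 and 28.1 TPM in vehicle. Both were highest in vehicle replicate 1 and lowest in CNO replicate 4, and in both CNO replicate 2 lay close to vehicle replicate 2. The log2 fold changes were -0.14 ± 0.15 for *Neurod6* and -0.08 ± 0.12 for *Neurod2* (SE; edgeR adjusted p = 0.822 and 0.877). The fold changes were -0.013 and -0.0072 without vehicle replicate 1, and without CNO replicate 4 they were -0.056 and -0.013. The exact permutation test over all 8 samples gave p = 0.400 and 0.486.

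The other factors of the excitatory lineage were *Tbr1* and *Emx1*. *Tbr1* measured 31.7, 38.1, 34.6 and 25.7 TPM in CNO and 47.8, 35.4, 32.8 and 41.6 TPM in vehicle. Vehicle replicates 1 and 4 lay above all CNO samples, and vehicle replicates 2 and 3 lay among them. The log2 fold change was -0.20 ± 0.12 (SE; edgeR adjusted p = 0.817; exact permutation p = 0.171), and it was -0.13 without either vehicle replicate 1 or CNO replicate 4. *Emx1* measured 9.58, 9.83, 8.24 and 6.19 TPM in CNO and 10.3, 11.8, 6.79 and 8.05 TPM in vehicle. Its replicates 1 and 2 lay above its replicates 3 and 4 in both groups. The log2 fold change was -0.05 ± 0.19 (SE; edgeR adjusted p = 0.946; exact permutation p = 0.600), and it was -0.04 without vehicle replicate 1, 0.05 without CNO replicate 4 and 0.08 without vehicle replicate 2.

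*Nrgn*, the dendritic gene and the most abundant of the 9, measured 896, 1051, 897 and 753 TPM in CNO and 1249, 1267, 762 and 793 TPM in vehicle. The vehicle samples fell into a high pair and a low pair, and all CNO samples but replicate 4 lay between the pairs. The means were 899 ± 121 and 1018 ± 278 TPM (SD, n = 4 each), with a log2 fold change of -0.18 ± 0.16 (SE; edgeR adjusted p = 0.817; exact permutation p = 0.429). It was -0.09 without vehicle replicate 1 and -0.13 without CNO replicate 4.

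Of the layer genes, *Rorb* measured 25.5, 30.2, 21.4 and 19.6 TPM in CNO and 44.1, 33.7, 22.5 and 27.6 TPM in vehicle. It had the widest range of the 9, at 2.25-fold, between vehicle replicate 1 and CNO replicate 4. Its log2 fold change of -0.26 ± 0.15 was also the largest (SE; edgeR adjusted p = 0.817; exact permutation p = 0.200), and it was -0.12 without vehicle replicate 1 and -0.22 without CNO replicate 4. *Cux2* measured 25.4, 26.2, 25.0 and 23.1 TPM in CNO and 26.4, 33.0, 27.3 and 25.4 TPM in vehicle. Apart from vehicle replicate 2 its values lay between 23.1 and 27.3 TPM, and CNO replicate 2 lay above vehicle replicate 4, so that the groups overlapped. The log2 fold change was -0.03 ± 0.09 (SE; edgeR adjusted p = 0.924; exact permutation p = 0.0857), and it was -0.09 without vehicle replicate 1 and -0.02 without CNO replicate 4. Without vehicle replicate 4 the exact permutation p was 0.0286, while the fold change fitted on counts was 0.00 without vehicle replicate 2 or 3. Adjusted over the 9 genes, the exact permutation p of the full set ran from 0.411 to 0.600.

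The spread within groups was above the median of tested genes with a mean TPM above 1 for 7 of the 9 genes in CNO and for 6 in vehicle. The median coefficient of variation of the 9 genes was 16.4% in CNO and 17.7% in vehicle, against 13.5% and 14.9% for the 15173 tested genes of mean TPM above 1. Vehicle replicate 1 was the highest of the 8 samples for 6 of the 9 genes and vehicle replicate 2 for the other 3, and CNO replicate 4 was the lowest for 8. Of those 15173 genes, 35.3% were highest in vehicle replicate 1 and 32.5% lowest in CNO replicate 4. Of the 36 gene pairs, 26 correlated positively across the 8 samples and 13 above 0.7, with a median Pearson r of 0.48 and a range from -0.56 to 0.92. The pair of *Neurod2* and *Nrgn* had the highest r, and *Slc17a6* and *Emx1* the lowest. These are descriptions over 8 samples that share their libraries and scaling. In the map of deviations *Slc17a6* and *Cux2* have the palest rows.

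**Figure D2:**
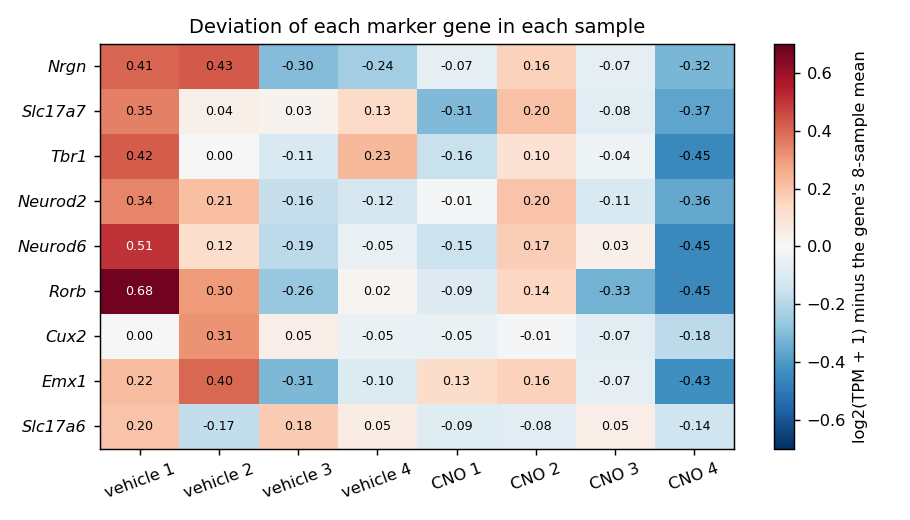
Deviation of each gene (rows) in each sample (columns) from its mean over the 8 samples, in log2(TPM + 1), red above and blue below the mean. Vehicle replicate 1 is above the mean for 9 of 9 genes and CNO replicate 4 below it for 9 of 9.

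Replicates 1 and 2 were also set beside replicates 3 and 4, as a description without a test, since the labels do not say what the numbers stand for. Averaged over groups, 8 of 9 genes were higher in replicates 1 and 2, by at most 1.46-fold. *Nrgn* measured 1116 TPM in replicates 1 and 2 against 801 TPM in replicates 3 and 4, *Rorb* 33.4 against 22.8, *Emx1* 10.4 against 7.32, *Neurod2* 35.0 against 26.8 and *Neurod6* 33.7 against 26.5. *Slc17a7* (457 against 410), *Tbr1* (38.3 against 33.7) and *Cux2* (27.8 against 25.2) differed less. For *Neurod2* and *Emx1* the lowest of the first 4 values exceeded the highest of the other 4, and for the other 7 genes the ranges overlapped. The share of all tested genes with such a split is not given here, so the split is not shown to be particular to the 9. *Slc17a6* went the other way, at 6.77 against 7.14 TPM. A fit with these pairs of replicates as a block called 0 of 9 genes and 3 of all 17495. In it 1 of the 9, *Rorb*, had an unadjusted p under 0.05, and the share of all genes under this threshold is not given here.

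Other genes of pyramidal neurons were read beside the 9. Of 23 such genes, all of them tested, 19 were fitted lower in CNO and 4 higher. Their log2 fold changes had a median of -0.139, and edgeR's quasi-likelihood test called 0. At an unadjusted p under 0.05 there were 5, all lower, against 2.65% of all genes in this direction. They were *Itpka*, *Lhx2*, *Rspo1*, *Foxp2* and *Syt6*, which were named after their values were seen. Without vehicle replicate 1 only *Itpka* of these 5 was still under 0.05, joined by *Etv1*, and without CNO replicate 4 only *Itpka* and *Foxp2* were. The median of the 23 was -0.163 and -0.168 in these fits, with 20 lower in each. *Foxp2*, a layer 6 transcription factor, measured 5.31 ± 1.43 TPM in CNO and 8.14 ± 1.52 TPM in vehicle (SD, n = 4 each), a log2 fold change of -0.45 ± 0.16 (SE; edgeR adjusted p = 0.817). *Rspo1*, a secreted activator of Wnt signalling used as a layer 4 marker, measured 19.5 ± 3.37 and 27.0 ± 4.91 TPM (SD, n = 4 each), with -0.42 ± 0.15 (SE; edgeR adjusted p = 0.817). In normalized counts, 3 of the 23 had all CNO samples below all vehicle samples (*Scnn1a*, *Rspo1* and *Etv1*), against 1.63% of all genes. *Camk2a*, the calcium-dependent kinase of excitatory neurons, measured 197 ± 14.6 and 239 ± 9.99 TPM (SD, n = 4 each), with a log2 fold change of -0.17 ± 0.11 (SE; edgeR adjusted p = 0.817).

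**Figure D3:**
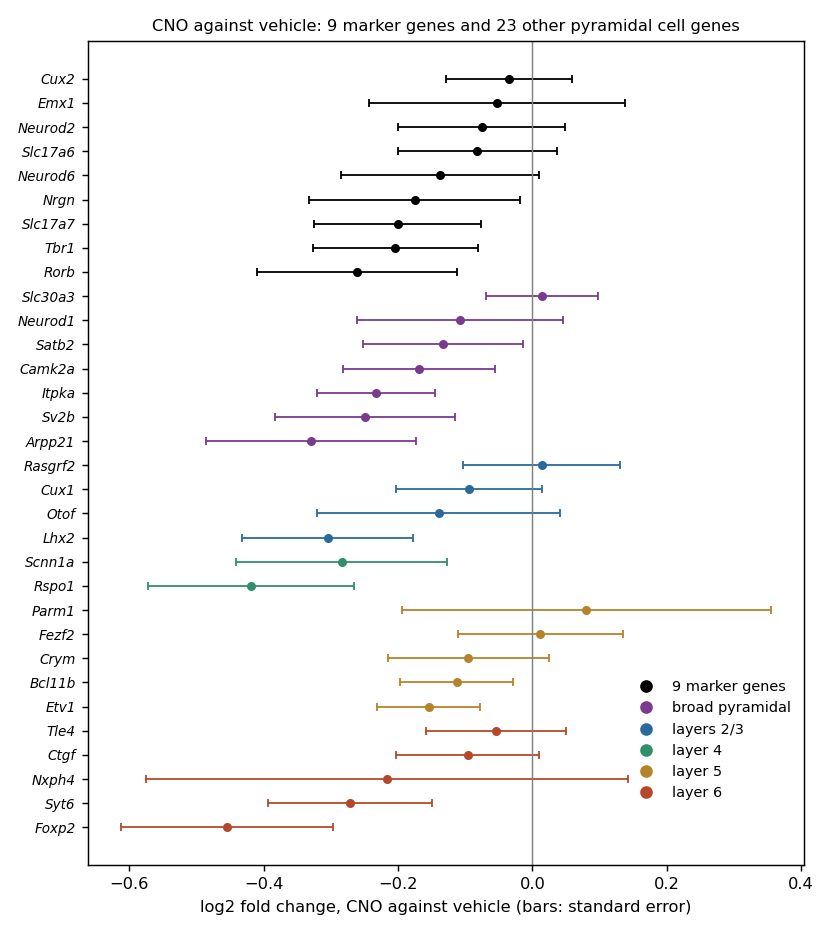
Log2 fold change of CNO against vehicle with its standard error for the 9 marker genes (black) and 23 other genes of pyramidal neurons (coloured by layer). All 9 marker genes and 19 of the other 23 lie below 0, and none passed the adjusted threshold.

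Set against the PV+ interneuron markers, the summed level of the 9 genes was 1397, 1724, 1457 and 1210 TPM in CNO and 2014, 1896, 1348 and 1429 TPM in vehicle. This was 0.121% to 0.201% of all transcripts. The means were 1447 ± 212 and 1672 ± 332 TPM (SD, n = 4 each), and the groups overlapped. The sum of the 10 PV+ interneuron markers was 3624, 2598, 3131 and 4035 TPM in CNO and 1210, 2961, 3211 and 3042 TPM in vehicle. The ratio of the sums was 1.66 in vehicle replicate 1 and 0.300 to 0.664 in the other 7 samples. *Slc17a7* over *Gad1*, which encodes the main GABA-synthesizing enzyme, was 1.07 in vehicle replicate 1 and 0.182 to 0.469 in the others. Vehicle replicate 1 was the only sample in which the sum of the pyramidal genes exceeded the sum of the interneuron markers. By mean level the largest parts of these sums were *Nrgn* and *Slc17a7*, and *Gad1* and *Pvalb*. Gene by gene the order differed, since in vehicle replicate 2 *Nrgn* (1267 TPM) also exceeded *Gad1* (1126 TPM) and *Pvalb* (988 TPM). All 10 interneuron markers were fitted higher in CNO, where 49.6% of all tested genes were lower, and edgeR called 0. At an unadjusted p under 0.05 there was 1, *Gad2*, against 4.09% of all genes in either direction. Its unadjusted edgeR p was 0.033, and it was 0.049 without vehicle replicate 1 and 0.087 without CNO replicate 4. Without vehicle replicate 1 the median log2 fold change of the 10 markers went from 0.46 to 0.19. *Kcnc1* turned to -0.06 there, so that 9 of 10 were higher.

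**Figure D4:**
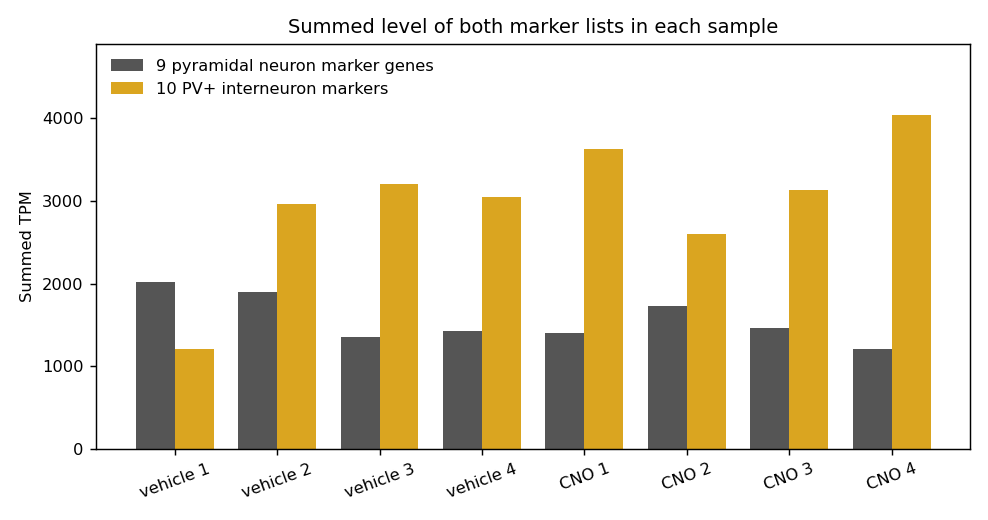
Summed TPM of the 9 pyramidal neuron marker genes (grey) and of the 10 PV+ interneuron markers (yellow) in each sample, on an axis from 0. In vehicle replicate 1 the sums are 2014 and 1210 TPM, and in CNO replicate 4 they are 1210 and 4035 TPM.

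Across the 8 samples, the log2 CPM of 6 of the 9 genes fell as the mean of the interneuron markers rose. Both were measured in the same libraries with the same scaling. The share of all tested genes with such a relation is not given here, so the relation is not shown to be particular to the 9. The 9 relations were tested by exact permutation with adjustment over them. Pearson's r was -0.93 for *Rorb* (exact p = 0.00198, adjusted 0.00893), -0.89 for *Neurod6* (0.00174, adjusted 0.00893) and -0.81 for *Slc17a7* (0.00561, adjusted 0.0168). Spearman's rho for these 3 was -0.88, -0.88 and -0.93 (exact p = 0.00724, 0.00724 and 0.00223, adjusted 0.0217, 0.0217 and 0.0201). For *Tbr1*, *Neurod2* and *Nrgn* r was -0.80, -0.74 and -0.72 (exact adjusted p = 0.0396, 0.0341 and 0.0483) with rho of -0.74, -0.74 and -0.71, whose exact adjusted p of 0.0825, 0.0825 and 0.0864 missed the threshold. *Emx1* (r = -0.37), *Slc17a6* (-0.14) and *Cux2* (0.43) showed no such relation, with exact adjusted p of 0.433, 0.752 and 0.404.

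Leaving out vehicle replicate 1 and CNO replicate 4, the samples farthest from the median of the interneuron markers, r of *Slc17a7* was -0.80, of *Rorb* -0.69, of *Neurod6* -0.64, of *Neurod2* -0.51, of *Nrgn* -0.47 and of *Tbr1* -0.27. With the 6 samples left, no exact permutation p was under 0.05, the lowest being 0.0653 for *Slc17a7*, so that no relation can be called without those samples. The r of *Slc17a7* was nearly the same over 6 samples as over 8, while that of *Tbr1* was weaker over 6. This contrast was not tested. Within groups of 4 the r of *Slc17a7* was -0.96 in CNO and -0.92 in vehicle, that of *Rorb* -0.89 and -0.91, and that of *Tbr1* -0.76 and -0.77, given without a test. For *Neurod6*, *Neurod2*, *Tbr1* and *Nrgn* it ran from -0.94 to -0.62 over both groups. In CNO and vehicle it was 0.40 and -0.13 for *Slc17a6*, -0.01 and 0.69 for *Cux2*, and -0.58 and -0.30 for *Emx1*. The difference in r between *Cux2* or *Slc17a6* and the other genes was not tested.

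Markers of other cells were also present and moved with the samples. Summed levels were 216 to 340 TPM in CNO and 271 to 393 TPM in vehicle for 8 astrocyte genes, 565 to 1024 and 780 to 1003 TPM for 7 oligodendrocyte genes, and 68.9 to 104 and 88.3 to 116 TPM for 7 microglia genes. These lists were fitted lower in CNO in 7 of 8, 7 of 7 and 7 of 7 genes, as were the 9 pyramidal genes, against 49.6% of all tested genes. The test of edgeR called 0 of them. At an unadjusted p under 0.05 there was 1 microglia gene, lower in CNO, against 2.65% of all genes in this direction. Without vehicle replicate 1 the counts of genes fitted lower were 7 of 8, 7 of 7 and 6 of 7. The median log2 fold changes of the 3 lists went from -0.153, -0.230 and -0.195 to -0.075, -0.165 and -0.097. Without CNO replicate 4 the counts were 7 of 8, 5 of 7 and 7 of 7. Of 7 genes of other interneurons, 4 were fitted lower and 3 higher, with 0 called. Of these 7, 1 (*Lamp5*) had an unadjusted p under 0.05 and all CNO samples below all vehicle samples in normalized counts. Of all genes, 2.65% were lower in CNO at this p and 1.63% showed this separation. The 5 blood vessel genes were fitted higher in CNO, with 0 called and 0 at an unadjusted p under 0.05, and summed to 21.9 to 63.4 and 33.1 to 49.03 TPM. No marker of any list was at 0 in any sample, and the part of these cells in the pyramidal gene levels was not tested.

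The genes whose levels most resembled the mean standardised level of the 9 were ranked by Pearson's r over the 8 samples among 15164 genes, as a description without a test. The 10 most alike were *Shkbp1* (r = 0.99), *Prr36*, *Kif17*, *Trem2*, *Nme4*, *Trmt13*, *Cdh10*, *3000002C10Rik*, *1700120C14Rik* and *Rgs6* (0.97). *Kif17* encodes a kinesin motor of dendrites and *Trem2* a receptor of microglia. The 10 most opposed were *Mob3a* (r = -0.98), *Zfp629*, *Tmem43*, *Rps4l*, *Nadk2*, *D15Ertd621e*, *Ppp1r13b*, *Acox3*, *Slc6a17* and *Larp1* (-0.96). Among the other listed pyramidal genes r ran from -0.69 (*Parm1*) to 0.97 (*Arpp21*, rank 22), and *Camk2a* had r = -0.11. The r of the 10 PV+ interneuron markers ran from -0.92 to -0.67. That of 8 astrocyte genes ran from -0.15 (*Gfap*) to 0.95 (*Slc1a2*), of 7 oligodendrocyte genes from 0.30 to 0.89, of 7 microglia genes from 0.45 to 0.91, and of 6 genes of other interneurons from -0.72 (*Npy*) to 0.81 (*Lamp5*). For 4 blood vessel genes it ran from -0.40 to -0.26.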

How the data were processed

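RNA-seq of ribosome-associated RNA covered 8 samples (4 CNO, 4 vehicle), and each sample combined 4 brains. Reads were trimmed with Trim Galore, aligned with STAR to GRCm38 (mm10) and quantified with Salmon, as given in the study's methods and the submitters' processing notes. The authors deposited estimated counts per gene, unnormalized and unfiltered. The authors also deposited TPM, in which counts are corrected for transcript length and brought to 1 sum in all samples. The library kit does not mark strand. The authors' read-level work was not repeated.

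The estimated counts were first made whole by rounding. The fits used edgeR 4.0.16 under R 4.3.3. A gene was dropped when 4 or more samples had fewer than 10 counts, which left 17495 of 45706. All 9 marker genes passed. CNO was compared with vehicle by TMM normalization and edgeR's quasi-likelihood test, and p-values were adjusted by Benjamini-Hochberg over all tested genes with a threshold of 0.05. Single values were compared on log2(TPM + 1) by two-sided exact permutation over 70 assignments, which cannot give a p below 0.0286. Differences on that scale understate changes of low genes. Neighbouring levels were compared by exact sign changes over 256 patterns, and correlations by exact permutation over 40320 orders. The scripts were tested on simulated counts. Total counts per sample ran from 44064161 to 49413273, so that 3 counts correspond to 0.0607 to 0.0681 CPM, counting error only.

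The groups came from the labels. The 9 marker genes and all other gene lists were chosen with earlier results of these data known. The 9 are always named, other pyramidal cell genes are counted with a few examples, and the 10 genes most alike and most opposed to the 9 were ranked by Pearson correlation over 8 samples among genes with a mean TPM above 1. Alternatives were the likelihood ratio test with robust dispersion, DESeq2 1.42.0, RLE factors, library size only, no filter, limma 3.58.1 on log2 TPM with 1 or 0.1 added, blocks of replicates, and leaving out each sample. Gene positions came from GENCODE mouse release M21 on GRCm38, and promoter sequences from RefSeq. Python 3.11.15 with matplotlib 3.10.9 made the plots. The gene name file served to find the rows. No amino acid or genome sequence was used here.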

Additional observations from a re-analysis of the deposited data

Results flagged for a closer look

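The summed level of the 10 PV+ interneuron markers in vehicle replicate 1, 1209.87 TPM, lay far from the other 3 vehicle samples, which ranged from 2961 to 3211 TPM, with a gap of 0.875 of the range of the group. In the same sample the 9 pyramidal neuron marker genes summed to 2014 TPM, the highest of the 8 samples. Of 24 groups of 4 examined in this way, about 1.2 would be set apart by chance, and none of the 9 genes was set apart in either group.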

How the results depend on the processing

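None of the 9 genes was called by any of 17 alternatives to the main test, which changed the test, scaling, filter, unit, block or samples, and the adjusted p ran from 0.472 to 1.00. Over all genes, 12 of these alternatives called 0 and the other 5 called 2 to 15, so that 0 of 9 is near this background. Of 153 fold changes, 149 stayed negative. The 4 that reversed were *Emx1* without CNO replicate 4 (0.051) and without vehicle replicate 2 (0.082), and *Cux2* without vehicle replicate 2 (0.00066) and without vehicle replicate 3 (0.0038). The difference in log2(TPM + 1) of *Emx1* also reversed without CNO replicate 4 (0.022) and without vehicle replicate 2 (0.013). The cause was not tested. Leaving out 1 sample at a time, the log2 fold change of *Emx1* ran from -0.152 to 0.082 and that of *Cux2* from -0.089 to 0.0038, and the difference in log2(TPM + 1) of *Emx1* from -0.225 to 0.022. In the same way the median log2 fold change ran from -0.209 to -0.085, the number of genes with an exact permutation p under 0.05 from 0 to 1, the neighbouring levels told apart from 3 to 4 of 8, and the median ratio to the interneuron markers from 0.465 to 0.470. The count of 1 arose without CNO replicate 2 (*Slc17a7*) and without vehicle replicate 4 (*Cux2*).

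The correlations of the deviations of same-numbered samples were 0.026, -0.030, 0.16 and 0.24. Between samples of different number they ran from -0.40 (CNO replicate 4 and vehicle replicate 1) to 0.43 (CNO replicate 2 and vehicle replicate 1). Whether a number marks a shared batch was not tested. With the replicate block the median log2 fold change was -0.133 and 0 of 9 genes were called. With 4 samples a group, a difference that misses the threshold does not show equal levels, and the standard errors of 0.09 to 0.19 on the log2 scale limit what could be seen.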
